A study of Mus musculus with 18 samples.

Results

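The enzymes of mitochondrial fatty acid beta oxidation were followed in the kidneys of young mice raised in normal or reduced oxygen. They were Cpt2, Acadl, Acadm, Acads, Echs1, Hadh, Hadha, Hadhb, Acaa2 and Acat1, 10 of the 4109 named genes that could be tested and of 5751 features in all. A member was any of these genes for which the platform annotation gave a probe that symbol and no other. That rule found 12 probes, of which 11 were kept: Acadl had 2 usable probes, which were averaged, and each other gene had 1. The mice were CD1, an outbred laboratory stock without any engineered allele named in the labels. Exposure began on postnatal day 2 and lasted 1, 2 or 4 weeks. Controls breathed room air (normoxia), others a steady 11% oxygen (constant hypoxia), and others oxygen alternating between 21% and 11% in steps of 4 min (intermittent hypoxia). Every combination was hybridised on 2 two-colour cDNA arrays, A and B, giving 18 arrays. Each array joined a kidney of an animal labelled male (Cy5) to one of an animal labelled female (Cy3) that had shared the same exposure.

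Beta oxidation shortens fatty acids inside mitochondria by repeated rounds of dehydrogenation, hydration, a second dehydrogenation and thiolysis, and releases acetyl-CoA and reduced electron carriers that feed respiration. Long-chain acyl groups enter through the carnitine shuttle. The kidney, above all its proximal tubule, takes much of its energy from fatty acids. The last steps of each cycle on long chains are carried out by the mitochondrial trifunctional protein, a complex whose alpha subunit is encoded by Hadha and whose beta subunit is encoded by Hadhb.

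Hadha and Hadhb lie head to head on mouse chromosome 5, and the stretch between them is shown because it belongs to the promoter windows of both genes. In the RefSeq table of GRCm38.p6 their start sites were 273 bases apart, at 30154980 for Hadha on the minus strand and at 30155253 for Hadhb on the plus strand. Windows reaching from 250 bases before to 50 bases after each start shared 228 bases at chr5:30155003-30155230, printed here on the plus strand, which is the Hadhb direction, with the GC box in capitals.
Hadha and Hadhb shared stretch: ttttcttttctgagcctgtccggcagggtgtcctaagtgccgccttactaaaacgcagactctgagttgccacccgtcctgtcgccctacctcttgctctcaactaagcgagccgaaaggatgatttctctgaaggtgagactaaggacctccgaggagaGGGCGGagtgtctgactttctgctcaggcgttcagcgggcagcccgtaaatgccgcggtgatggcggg
The stretch had a GC content of 57.0% and held 1 GC box (GGGCGG, searched on both strands), at position 161. A GC box was present in 29.5% of all RefSeq promoters over a length equal to that of the stretch. Over the full 300 bases it was found in 7 of the 8 member promoters in the table, and in 35.7% of 32851 promoters. The site in the shared stretch counts for both Hadha and Hadhb, so these 2 of the 8 were not separate. Other short strings were searched on both strands in the same windows, where matches of different strings may overlap. The core of hypoxia response elements had the letters ACGTG in its first form, found in 0 of the 8 member promoters and in 19.6% of all. Its second form, GCGTG, was found in 6 of the 8 and in 32.4% of all. The nuclear receptor half-site AGGTCA was in 2 of the 8, those of Acadm and Echs1, and in 16.3% of all. CCAAT was in 1 of the 8, that of Hadh, and in 37.4% of all. TATAA was in 0 of the 8 and in 24.9% of all.

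Each deposited value was a log2 ratio between Cy5 and Cy3 of one array, so a response of equal size in both animals leaves it unchanged. The sources used here do not give the numerator, and signs below are those of the deposited value after each array was centred on its median feature. Eif2s3y, a Y-linked gene, should keep 1 sign under these labels, yet it was above 0 on 11 arrays and below 0 on 7, from -2.16 to 1.64. It was near 0 on some: -0.08 on normoxia 1 week B, and 0.06 on normoxia 4 weeks A and constant hypoxia 1 week A. On intermittent hypoxia 4 weeks A it read 0.10, so the sign of such arrays is uncertain. No sign is therefore read as a difference between the sexes. Every contrast was also fitted with the sign turned on those 7 arrays, a choice made from this gene and not from the labels, and none of the 10 enzymes passed there either. The constant hypoxia arrays were deposited on another footing. Their medians were -1.13 to -0.97 at 1 and 4 weeks and -0.18 and -0.23 at 2 weeks, against -0.15 to 0.10 elsewhere. The constant hypoxia arrays had values for 81.8% to 88.8% of probes, against 41% to 67.9%. The effect of constant hypoxia on a ratio cannot be told apart from that footing. The SD over features was 0.890 on constant hypoxia 4 weeks A and 0.678 on intermittent hypoxia 2 weeks B, against 0.239 to 0.465 on the other 16 arrays. Labels disagreed on 2 arrays: on intermittent hypoxia 2 weeks A the Cy3 animal carries a 1-week name, and a treatment text gives 2 weeks for constant hypoxia 4 weeks A. Ratios carry no level, so tissue identity could not be read from them. The proximal tubule markers Lrp2, Miox and Gatm, 3 of 17 listed, could be tested, as could 3 of 6 endothelial, 2 of 8 adrenal cortex, 2 of 5 podocyte and 2 of 8 immune markers. None of the 10 brown fat and 8 skeletal muscle markers could be. Fewer cells of a type and less RNA per cell cannot be told apart in whole kidney.

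None of the 10 enzymes passed the threshold in any of the 17 contrasts fitted with limma, at an adjusted p of 0.05 over all features. The widest departures were those of Echs1 and Hadhb on constant hypoxia 4 weeks A, where the probes numbered around them were low too, and those of Acadm and Acat1 between normoxia and intermittent hypoxia at 4 weeks. Over the 18 arrays the SD of a member ran from 0.22 for Cpt2 to 0.64 for Acat1, and its median over the members was 0.40 against 0.31 over all features. The spread of Cpt2 exceeded that of 14.9% of features and the spread of Acat1 that of 95.7%.

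**Figure D1:**
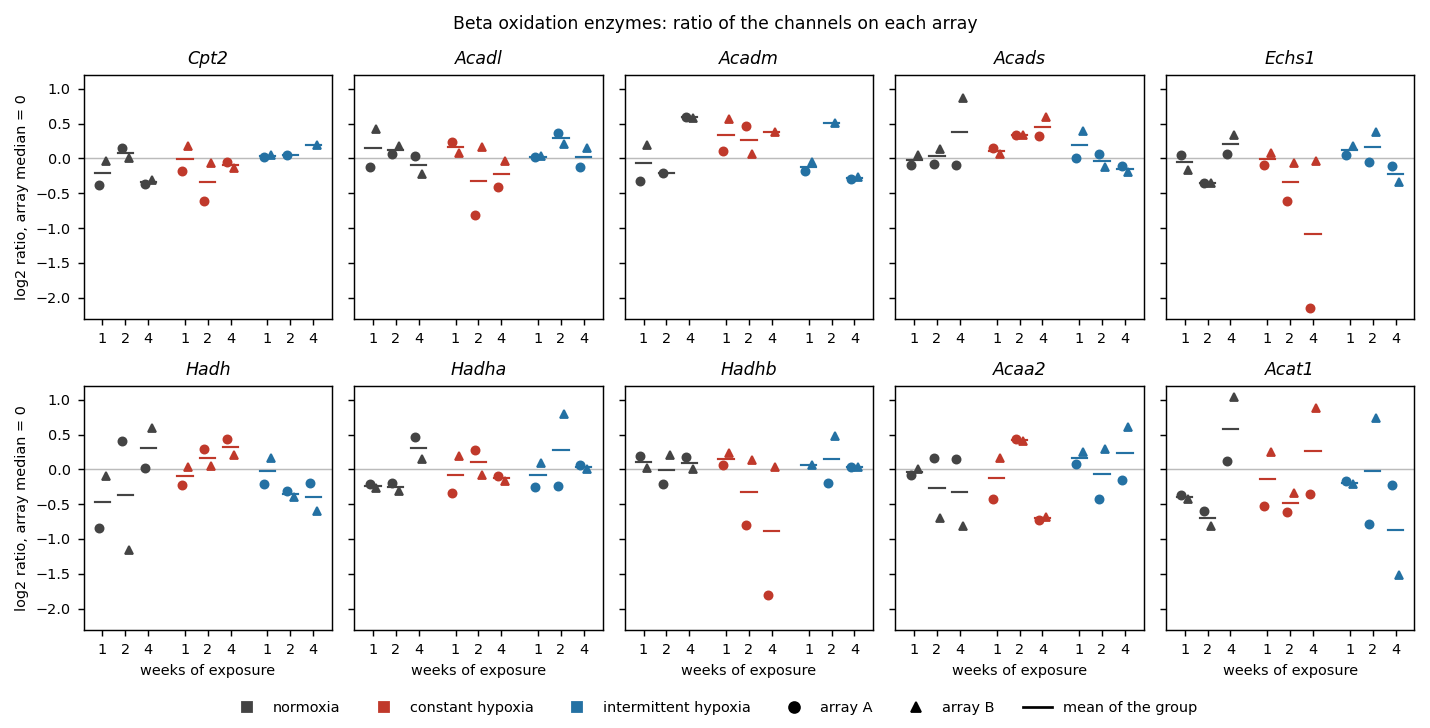
Each panel plots 1 enzyme as the log2 ratio of the channels (y axis, array median set to 0) against weeks of exposure (x axis) in normoxia, constant hypoxia and intermittent hypoxia. Circles are arrays A, triangles are arrays B and bars are group means. Most values lie within 0.5 of 0, and the lowest are Echs1 at -2.15 and Hadhb at -1.80, both on constant hypoxia 4 weeks A.

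Cpt2, carnitine palmitoyltransferase of the inner mitochondrial membrane, hands long-chain acyl groups back to coenzyme A at the entry to the pathway. In normoxia its ratio was -0.38 and -0.04 at 1 week, 0.15 and 0.00 at 2 weeks, and -0.36 and -0.31 at 4 weeks. In constant hypoxia it was -0.18 and 0.17, then -0.61 and -0.06, then -0.06 and -0.13, in the same order. In intermittent hypoxia 4 arrays had a value, from 0.02 to 0.19, all above 0. The 3 conditions overlapped, and the highest intermittent hypoxia value lay just above the highest of the others. The fitted difference between intermittent hypoxia and normoxia was 0.24 ± 0.16 (SE), with a 95% interval of -0.11 to 0.60.

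The 3 acyl-CoA dehydrogenases carry out the first step, Acadl on long chains, Acadm on medium chains and Acads on short chains. Acadl ranged from -0.22 to 0.42 in normoxia (median 0.05), from -0.81 to 0.24 in constant hypoxia (median 0.02), and from -0.12 to 0.37 in intermittent hypoxia (median 0.09). Its lowest value, on constant hypoxia 2 weeks A, stood apart from the 0.16 of array B of that group. The 2 probes averaged for Acadl did not track each other (r = 0.05 over 17 arrays, a description of 2 spots for 1 gene). On constant hypoxia 4 weeks A one read 0.22 and the other -1.06.

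Acadm had values on 15 arrays. In normoxia they were -0.32 and 0.20 at 1 week, -0.20 on the single 2-week array and 0.60 and 0.58 at 4 weeks. In constant hypoxia all 5 values were above 0, from 0.07 to 0.57. In intermittent hypoxia they were -0.18 and -0.06 at 1 week, 0.52 on the single 2-week array, and -0.30 and -0.27 at 4 weeks. The 4-week pairs of normoxia and intermittent hypoxia were tight and lay on opposite sides of 0.

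Acads was between -0.09 and 0.13 on 5 of the 6 normoxia arrays and 0.86 on the remaining one, normoxia 4 weeks B. In constant hypoxia all 6 values were above 0, from 0.07 to 0.60 with a median of 0.33. In intermittent hypoxia they ran from -0.20 to 0.39 with a median of -0.05. The 3 ranges overlapped.

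Echs1, the short-chain enoyl-CoA hydratase of the second step, was between -0.36 and 0.34 in normoxia and between -0.34 and 0.38 in intermittent hypoxia. In constant hypoxia it was -0.09 and 0.07 at 1 week, -0.61 and -0.06 at 2 weeks, and -2.15 and -0.03 at 4 weeks. The pair of arrays at 4 weeks thus held the lowest member value of the data set and one close to 0.

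Hadh, the short- and medium-chain 3-hydroxyacyl-CoA dehydrogenase of the third step, varied most in normoxia, with -0.84 and -0.09 at 1 week, 0.41 and -1.15 at 2 weeks, and 0.02 and 0.60 at 4 weeks. In constant hypoxia it lay between -0.23 and 0.44 with 5 of 6 values above 0. In intermittent hypoxia it lay between -0.60 and 0.17 with 1 of 6 above 0. Both hypoxia ranges fell inside that of normoxia.

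Hadha, whose subunit carries the hydratase and the hydroxyacyl-CoA dehydrogenase activity of the trifunctional protein, ran from -0.31 to 0.47 in normoxia and from -0.34 to 0.28 in constant hypoxia. In intermittent hypoxia 5 values lay between -0.26 and 0.10 and intermittent hypoxia 2 weeks B read 0.80. Hadhb, whose subunit carries the thiolase activity, ran from -0.21 to 0.21 in normoxia and, on 5 arrays, from -0.19 to 0.48 in intermittent hypoxia. In constant hypoxia it was 0.06 and 0.24 at 1 week, -0.80 and 0.13 at 2 weeks, and -1.80 and 0.03 at 4 weeks. The low Hadhb values fell on the arrays where Echs1 was low, and Hadha was 0.28 and -0.09 on those arrays.

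Acaa2, a thiolase that cleaves the shortened chain, was -0.09 and 0.00 at 1 week, 0.16 and -0.70 at 2 weeks, and 0.16 and -0.82 at 4 weeks in normoxia. In constant hypoxia it was -0.42 and 0.16, then 0.44 and 0.40, then -0.72 and -0.68. In intermittent hypoxia it ran from -0.43 to 0.61. The constant hypoxia pairs at 2 and 4 weeks were each tight and lay on opposite sides of 0.

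Acat1, the mitochondrial acetoacetyl-CoA thiolase, also used in ketone body and isoleucine metabolism, had the widest spread of the 10. In normoxia it was -0.37 and -0.43 at 1 week, -0.60 and -0.81 at 2 weeks, and 0.12 and 1.05 at 4 weeks. In constant hypoxia it ran from -0.61 to 0.89. In intermittent hypoxia it was -0.16 and -0.22 at 1 week, -0.79 and 0.74 at 2 weeks, and -0.22 and -1.51 at 4 weeks. The extreme values, 1.05 and -1.51, were those of array B of normoxia and of intermittent hypoxia at 4 weeks.

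The ratios of most member probes moved with those of probes near them in probe number, which were compared through the median of the 50 probe numbers on either side. On constant hypoxia 4 weeks A this median was -1.75 around Echs1, -1.38 around Hadhb, -1.79 around the second Acadl probe and -2.09 around Acat1, 4 probes numbered between 15267 and 15899. On constant hypoxia 2 weeks A it was -0.52, -0.49, -0.48 and -0.68. The low values of Echs1 and Hadhb thus stood in stretches that were low as a whole, while Acat1, at -0.35 on constant hypoxia 4 weeks A, stood above its surroundings. After the running median was subtracted, Echs1 on that array was -0.40, Hadhb -0.42 and Acat1 1.73. On constant hypoxia 4 weeks B they were then -0.16, -0.38 and 0.70, the neighbour median around Hadhb being 0.42 there.

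Over the arrays, 8 of the 11 member probes followed the median of their neighbours with an adjusted p below 0.05 (permutation tests, 11 relations). The share over all probes was not computed, so the count is not read as particular to these enzymes. Pearson's r was 0.94 for Echs1 (Spearman's rho = 0.53, n = 18, permutation p = 7e-05 and 0.0255, adjusted p = 0.000412), and without the arrays constant hypoxia 4 weeks A and 2 weeks A it was 0.55. It was 0.78 for Hadh (rho = 0.85, permutation p = 0.00013 and 4e-05, adjusted p = 0.000412), which rested on no such pair of arrays: r was 0.85 without the 2 farthest. It was 0.86 within normoxia, 0.77 within constant hypoxia and 0.61 within intermittent hypoxia. For Acat1, Acaa2 and Acads r was 0.21, 0.16 and -0.01 (permutation p = 0.359, 0.529 and 0.983). What sets a stretch of probe numbers apart was not tested.

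**Figure D2:**
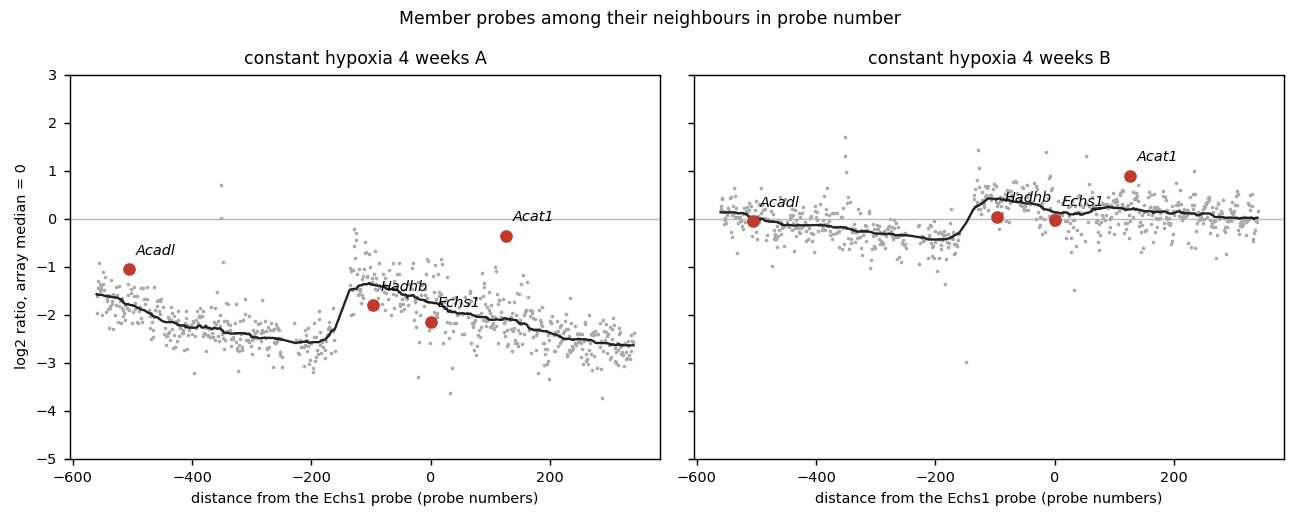
The log2 ratio (y axis, array median set to 0) of probes around that of Echs1 is plotted against the distance in probe numbers (x axis) for constant hypoxia 4 weeks A and B. Grey points are probes, the line is the running median and red points are members. On array A the line lies well below 0, at -1.38 around Hadhb and -1.75 around Echs1, and both enzymes lie near it, whereas on array B they lie near 0.

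The mean ratio of each condition asks where the channels differed on average over the 3 durations. The dyes were not swapped, so a dye effect of a probe is part of this mean. Such an effect cannot be told apart from a difference between the paired animals. In normoxia 0 of the 10 enzymes passed (limma, 0 at an unadjusted p under 0.05), where 3.53% of all features passed and 21.7% had such an unadjusted p. In intermittent hypoxia 0 passed (0 unadjusted), against 5.79% of features (24.6% unadjusted). In constant hypoxia 0 passed and 3 had an unadjusted p under 0.05, against 18.3% of features called and 35.7% with such a p, so the members' count was no higher than the background. These 3 were Acadm at 0.33 ± 0.12 (SE, adjusted p = 0.0821), Acads at 0.30 ± 0.11 (adjusted p = 0.0707) and Echs1 at -0.48 ± 0.19 (adjusted p = 0.0839). With the running median removed they were 0.09, 0.09 and -0.09, and with the sign turned by Eif2s3y 0.31, 0.19 and -0.46. Without constant hypoxia 4 weeks A the Echs1 mean was -0.13, and without array B it was -0.83, so that 1 array decides this value.

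On the values as deposited, without centring, all 10 enzymes had a negative mean ratio past the threshold in constant hypoxia, where 98.9% of features did, and Acadm and Acads turned to -0.43 and -0.49. The difference from normoxia then passed for 9 of the 10, all negative, against 96.9% of features, and that between intermittent and constant hypoxia for 8, all positive, against 93.7%. At 1 week 5 passed against 77.7%, and at 4 weeks 10 against 91.2%. On this scale a count of members is read against such shares of all features, and the array medians described above enter every one of them.

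Constant hypoxia was set against normoxia to ask whether steady low oxygen moved the ratio of any enzyme. Over the 3 durations 7 of the 10 differences were above 0, with a median of 0.04, against 43.1% of all features and a median of -0.04. Hadh was highest at 0.31 ± 0.23 (SE, 95% interval -0.19 to 0.81), followed by Acadm at 0.22 ± 0.17 and Acads at 0.17 ± 0.16. Hadhb was lowest at -0.42 ± 0.27, next to Echs1 at -0.41 ± 0.26 (interval -0.98 to 0.15). No enzyme passed, at adjusted p values of 0.669 to 0.989 and with 0 at an unadjusted p under 0.05. Of all features 0% passed and 433 had an unadjusted p under 0.05. Without constant hypoxia 4 weeks B, which leaves array A alone at that time, Echs1 became -0.76 and Hadhb -0.73. With the running median removed they were -0.06 and -0.13. Turned by Eif2s3y, Echs1 was -0.56, Hadhb -0.53 and Hadh 0.40, and 4 of the 10 differences were above 0.

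Intermittent hypoxia was set against normoxia in the same way. Of the 10 differences 6 were above 0, with a median of 0.03, against 53.0% and 0.01 over all features. Acaa2 had the highest, 0.32 ± 0.22 (SE, interval -0.14 to 0.79), and Acat1 the lowest, -0.18 ± 0.30 (interval -0.83 to 0.46). Echs1 and Hadhb, low on constant hypoxia arrays, were at 0.09 ± 0.26 and 0.02 ± 0.29. All 10 adjusted p values were 0.995, and 0 enzymes had an unadjusted p under 0.05. Of all features 0% passed and 237 had an unadjusted p under 0.05. The interval bound farthest from 0 was the -0.83 of Acat1. On the turned arrays Acaa2 was 0.19, Acat1 0.05 and Hadh 0.53 ± 0.21 (unadjusted p = 0.0266, adjusted p = 0.875, limma), the last against -0.08 ± 0.23 before turning.

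The regimes were also set against each other. Intermittent minus constant hypoxia was 0.50 ± 0.26 for Echs1 and 0.44 ± 0.29 for Hadhb, -0.39 ± 0.23 for Hadh, -0.30 ± 0.16 for Acads and -0.29 ± 0.17 for Acadm (SE). No enzyme passed (limma, smallest adjusted p 0.473, 0 at an unadjusted p under 0.05), where 0.0348% of features, 2 of them, did. Without constant hypoxia 4 weeks B, Echs1 became 0.85 and Hadhb 0.74. After turning, Echs1 was 0.46, Hadhb 0.37, Acadm -0.46 (unadjusted p = 0.0481, adjusted p = 0.47, limma), Acads -0.10 and Hadh, now above 0, 0.13.

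**Figure D3:**
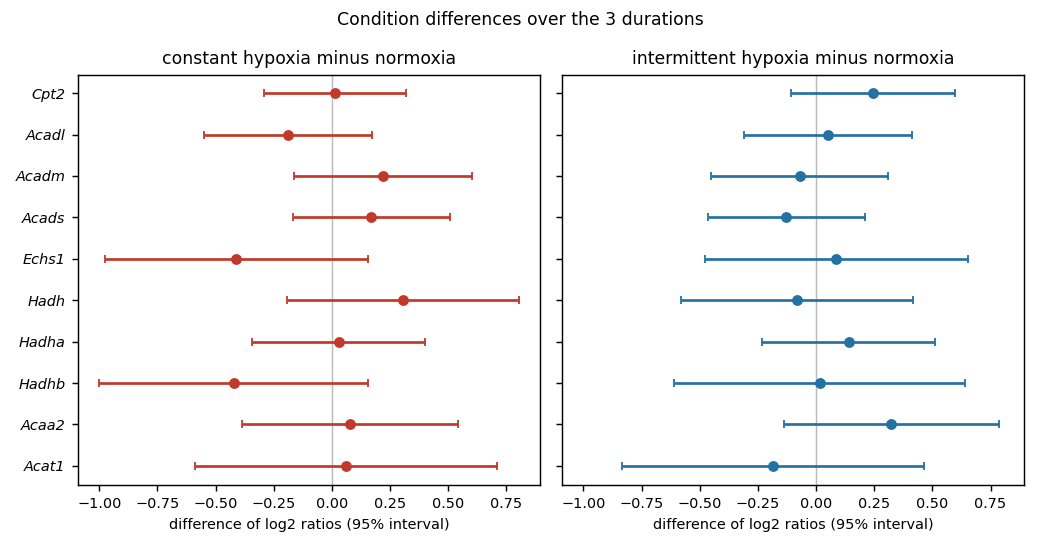
Points are the fitted differences of the mean log2 ratio over the 3 durations (x axis) for each enzyme (y axis), constant hypoxia minus normoxia at left and intermittent hypoxia minus normoxia at right, with 95% intervals as bars. Every interval includes 0, and those of Echs1, Hadhb and Acat1 are the widest.

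Within single durations the differences rested on 2 arrays a group. Constant hypoxia minus normoxia at 1 week was highest for Acadm, at 0.40 ± 0.26 (SE), and lowest for Acaa2, at -0.09 ± 0.38. No enzyme passed and 0 had an unadjusted p under 0.05 (limma, 0% of features called, 142 unadjusted). At 2 weeks Acaa2 was highest at 0.69 ± 0.38 and Acadl lowest at -0.45 ± 0.29. Again 0 enzymes passed (0 unadjusted), against 0.0174% of features, which is 1. After turning by Eif2s3y, Acaa2 was 0.45, Acadl -0.54 and Hadh 0.91 (unadjusted p = 0.0279, adjusted p = 1, limma) at 2 weeks. At 4 weeks Echs1 was lowest at -1.30 ± 0.46 (unadjusted p = 0.0129, adjusted p = 0.715, limma) and Hadhb next at -0.98 ± 0.47, and 0 enzymes passed against 0.0348% of features (397 unadjusted). No array of these 4-week groups was turned by Eif2s3y, and the differences then keep their values. With array A left out the Echs1 difference was -0.24, and with array B left out it was -2.36, beside -1.90 for Hadhb.

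Intermittent hypoxia minus normoxia at 1 week ran from -0.12 ± 0.29 for Acadl to 0.45 ± 0.40 for Hadh, with 0 enzymes called or under an unadjusted p of 0.05 (limma, 0% of features called, 167 unadjusted). In the turned fit these were 0.28 and 0.56. At 2 weeks 8 enzymes were above 0, as were 19 of the 33 other genes of fatty acid oxidation described below. The highest enzymes were Acadm at 0.72 ± 0.37, Acat1 at 0.68 ± 0.53 and Hadha at 0.54 ± 0.30. None passed (0 unadjusted), against 0.0869% of features, which is 5. With intermittent hypoxia 2 weeks A left out, array B stood alone and Hadha was 1.06. Turning by Eif2s3y reversed both intermittent hypoxia arrays and 1 normoxia array here, and Acadm was -0.72, Hadha -0.23 and Hadh 1.13 ± 0.37 (unadjusted p = 0.00822, adjusted p = 0.391, limma).

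At 4 weeks more enzymes lay lower in intermittent hypoxia than in normoxia, a comparison picked out after the values were seen. The median difference of the 10 was -0.35, with 3 above 0, against a median of 0.01 and 50.9% above 0 over all features. In 6 of the 9 enzymes with a value on all 4 arrays (Acadm, Acads, Acat1, Echs1, Hadh and Hadha) both intermittent hypoxia arrays lay below both normoxia arrays. The same held for 22.3% of all features. With the sign of intermittent hypoxia 4 weeks B turned, as Eif2s3y reads there, it held for 2 of the 9 (Acadm and Hadha) and for 14.7% of all features, and the median difference of the 10 was -0.09. Acadm was 0.60 and 0.58 against -0.30 and -0.27, a fitted difference of -0.88 ± 0.26 (SE, unadjusted p = 0.00592, adjusted p = 0.487, limma). Acat1 was 0.12 and 1.05 against -0.22 and -1.51, a difference of -1.45 ± 0.53 (unadjusted p = 0.0151, adjusted p = 0.516). With that array turned the Acat1 difference was 0.06 ± 0.68 and that of Acadm -0.61 ± 0.31 (adjusted p = 0.999 for both, limma). Turning that array thus removed the Acat1 difference, whereas leaving the array out kept the difference negative, as given below.

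No enzyme passed in this comparison, 2 had an unadjusted p under 0.05, and of all features 0% passed and 502 had such a p. Hadh was at -0.70 ± 0.40, Acads at -0.54 ± 0.27, Echs1 at -0.43 ± 0.46 and Hadha at -0.28 ± 0.30, while Acaa2 was at 0.56 ± 0.38 and Cpt2 at 0.52 ± 0.30. The Acadm and Acat1 differences were -0.76 and -1.38 with the running median removed. For Acat1, Acads, Hadh and Echs1 the B arrays were farther apart than the A arrays. Without intermittent hypoxia 4 weeks B the Acat1 difference was -0.80, and without array A it was -2.09. Eif2s3y read 0.06 in normoxia and 0.10 in intermittent hypoxia on the A arrays, and 1.64 and -1.63 on the B arrays. It too differed between the B arrays, and its part in the result was not tested. The median of the 3 proximal tubule markers was 0.03 and 0.03 in normoxia and -0.13 and 0.07 in intermittent hypoxia.

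Change with age was taken as 4 weeks minus 1 week in each condition. In normoxia 6 enzymes were above 0, and the median of the 10 was 0.33. The highest were Acat1 at 0.98 ± 0.53 (SE), Hadh at 0.77 ± 0.40 and Acadm at 0.66 ± 0.26. Next came Hadha at 0.55 ± 0.30, Acads at 0.41 ± 0.27 and Echs1 at 0.26 ± 0.46. Of the 33 other genes of fatty acid oxidation described below, 22 were above 0, with a median of 0.19. A median above 0 was thus not particular to the 10 enzymes. In 5 of the 10 (Acadm, Acat1, Echs1, Hadh and Hadha) both 4-week arrays lay above both 1-week arrays, as in 19.3% of all features. None passed, 1 enzyme (Acadm, adjusted p = 0.532, limma) had an unadjusted p under 0.05, and of all features 0% passed and 491 had such a p. In the turned fit Acadm was 0.85, Hadh 0.68 and Acat1 0.55, and 1 of the 10 (Acadm) lay above without overlap, against 13.5% of all features. Among the arrays of this change only normoxia 1 week B was turned, at an Eif2s3y value of -0.08. The normoxia 4-week arrays are those used in the comparison above, so the patterns share samples.

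In constant hypoxia Echs1 was at -1.08 ± 0.46 (adjusted p = 0.44, limma) and Hadhb at -1.03 ± 0.47 (adjusted p = 0.479), the 2 enzymes with an unadjusted p under 0.05. No enzyme passed, and of all features 0% passed and 585 had such a p. Without constant hypoxia 4 weeks A they were -0.03 and -0.12, and without array B -2.14 and -1.95. In intermittent hypoxia the change ran from -0.68 ± 0.53 for Acat1 to 0.16 ± 0.30 for Cpt2, with 0 enzymes called or under an unadjusted p of 0.05 (limma, 0% of features called, 153 unadjusted). Acat1 was at 0.67 ± 0.68 in the turned fit.

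The test of the difference between these changes asks whether the age change was altered by a hypoxia regime. For constant hypoxia against normoxia it was -1.34 ± 0.65 (SE) for Echs1 and -1.02 ± 0.66 for Hadhb, with a median over the 10 of -0.47. Over the 33 other genes of fatty acid oxidation described below the median was -0.17, with 10 above 0. No enzyme passed or had an unadjusted p under 0.05 (limma, 0% of features called, 200 unadjusted). Without constant hypoxia 4 weeks B, Echs1 was -2.40 and Hadhb -1.94. For intermittent hypoxia against normoxia it was -1.66 ± 0.74 for Acat1 and -0.83 ± 0.37 for Acadm (adjusted p = 0.584 for both, limma), with a median of -0.52. Over the 33 other genes the median was -0.25, with 7 above 0. The medians over all features are not given here, so those of the enzymes are not read as particular to them. Acat1 turned to 0.12 ± 0.96 when the arrays were turned by Eif2s3y, and Acadm was then at -0.93 ± 0.45. Of all features 0% passed and 480 had an unadjusted p under 0.05.

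**Figure D4:**
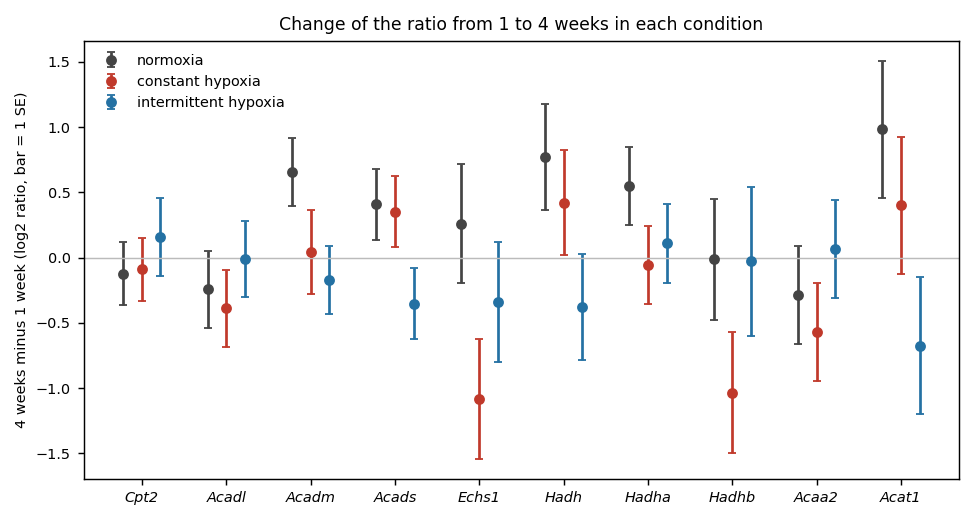
The change of the log2 ratio from 1 to 4 weeks (y axis) is plotted for each enzyme (x axis) in normoxia, constant hypoxia and intermittent hypoxia, with bars of 1 SE. Acat1 is at 0.98 in normoxia and at -0.68 in intermittent hypoxia (0.55 and 0.67 with the sign turned by Eif2s3y, not drawn), and Echs1 and Hadhb are low in constant hypoxia, at -1.08 and -1.03.

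Because the trifunctional protein needs both subunits, the ratios of Hadha and Hadhb were set against each other over the 17 arrays with both values. Pearson's r was 0.16 (permutation p = 0.568) and Spearman's rho 0.19 (permutation p = 0.471), with an adjusted p of 0.839 over 6 relations for r. Within normoxia r was 0.16 (n = 6, exact permutation p = 0.825) and within constant hypoxia -0.13 (n = 6, exact permutation p = 0.839). Intermittent hypoxia had 5 such arrays and no value was computed. Without the 2 arrays farthest in Hadha, intermittent hypoxia 2 weeks B and normoxia 4 weeks A, r was -0.15. On the values as deposited r was 0.72 (permutation p = 8e-04), where the array medians themselves differ between conditions. It was 0.17 with the sign turned by Eif2s3y.

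Among all 45 pairs of members, r was above 0 in 25, with a median of 0.09, and in 28 after removal of the running median, with a median of 0.05. Echs1 and Hadhb had r = 0.92 (rho = 0.54, n = 17, permutation p = 0.00012 and 0.0263, adjusted p = 0.0054 over 45 pairs). It was 0.68 without constant hypoxia 4 weeks A, and 0.47 without constant hypoxia 2 weeks A as well. It was 0.22 within normoxia and 0.53 after removal of the running median, so its size depended on those arrays. Acat1 and Hadh, the enzymes of the closing thiolysis and of the step before it on short chains, had r = 0.43 on the centred values. With the running median removed their r was 0.84 (rho = 0.87, n = 18, permutation p = 2e-05 and 1e-05, the latter the smallest that 100000 resamples can give, adjusted p = 9e-04 over 45 pairs). It was then 0.78 without constant hypoxia 4 weeks A and normoxia 4 weeks B, and 0.88, 0.97 and 0.95 within normoxia, constant and intermittent hypoxia (6 arrays each). Acadm and Acat1 had r = 0.65 (adjusted p = 0.134 over 45 pairs, permutation) and 0.75 with the running median removed (adjusted p = 0.0171). Acaa2 and Hadhb had r = 0.25 (adjusted p = 0.555, permutation) and 0.67 with the running median removed (rho = 0.75, adjusted p = 0.0462). These 3 were the pairs past an adjusted p of 0.05 (permutation) with the running median removed. Echs1 with Hadhb was the only one on the centred values. The share over pairs of other features was not computed, so these counts are not read as particular to the enzymes. With the sign turned by Eif2s3y as well, r with the running median removed was 0.80 for Acat1 and Hadh (adjusted p = 0.00135, permutation), 0.72 for Acadm and Acat1 and 0.65 for Acaa2 and Hadhb (adjusted p = 0.0621 for both). The pair Acat1 and Hadh was singled out after its values were seen, and it differs by this much between the 2 settings.

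Members were also set against Eif2s3y, whose sign varied between arrays. Acads rose with it (r = 0.65, rho = 0.63, n = 18, permutation p = 0.00316 and 0.00611, adjusted p = 0.0316 over 10 relations). Its r was 0.68 without the 2 farthest arrays, 0.71 within normoxia, 0.20 within constant hypoxia and 0.53 within intermittent hypoxia, and 0.51 with the running median removed (adjusted p = 0.102). The other 9 members had r between -0.60 for Cpt2 and 0.49 for Acadm, with adjusted p values of at least 0.0613 by permutation.

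**Figure D5:**
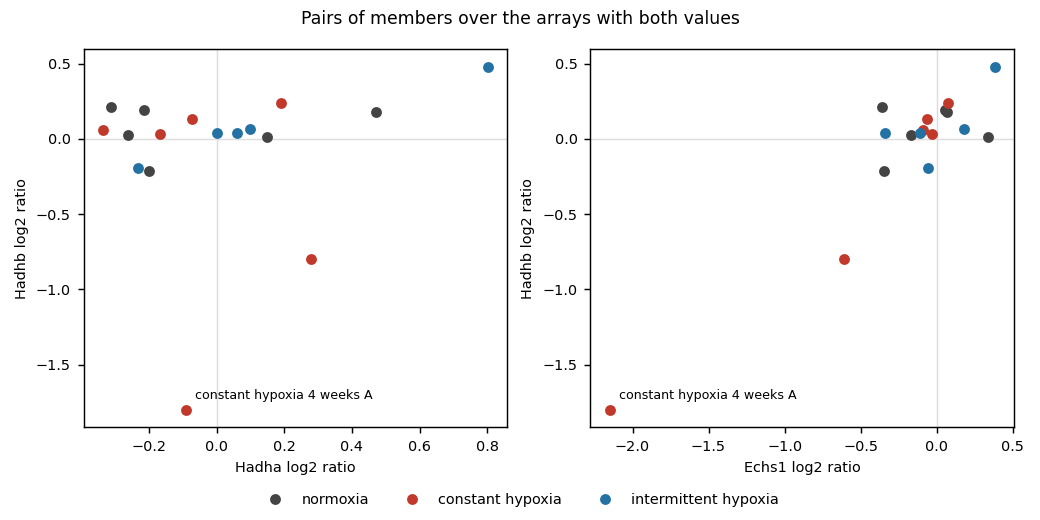
Each point is an array, plotted by its log2 ratios of Hadha and Hadhb (left, x and y axes) and of Echs1 and Hadhb (right). The left cloud has r = 0.16, and the right one r = 0.92, with constant hypoxia 4 weeks A far from all other arrays at -2.15 and -1.80.

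Other genes of fatty acid oxidation were taken from 7 lists of 97 genes, of which 33 could be tested. They were 3 of 8 of the carnitine shuttle, 5 of 16 of uptake and activation, 12 of 22 other mitochondrial enzymes, 2 of 3 of electron transfer, 6 of 17 peroxisomal, 1 of 7 of ketone metabolism and 4 of 24 regulators. In normoxia 2 of the 33 passed, both negative, against 3.53% of all features, where 114 of the 203 were positive: Slc22a5, the plasma membrane carnitine transporter, at -0.43 (adjusted p = 0.0193, limma) and Eci1, an enoyl-CoA isomerase for unsaturated chains, at -0.42 (adjusted p = 0.0294). With the running median removed Eci1 was -0.45 (adjusted p = 0.0147) and Slc22a5 was -0.22 (adjusted p = 0.262). Slc22a5 was below 0 on every array, from -0.63 to -0.09, and from -0.48 to -0.11 in intermittent hypoxia. On the values as deposited its intermittent hypoxia mean was -0.34 (adjusted p = 0.0438, limma), so its sign was not particular to a condition. In the mean ratio of intermittent hypoxia, in the differences between conditions and in the changes with age none of the 33 passed.

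In constant hypoxia 9 of the 33 passed, 1 positive and 8 negative, against 18.3% of all features, where 288 of the 1050 were positive. With the sign turned by Eif2s3y 0 features passed in the mean ratio of any condition. Acot2, a mitochondrial acyl-CoA thioesterase, was at 0.39 (adjusted p = 0.0181, limma), and at -0.40 on the values as deposited. The negative ones were Slc22a5 at -0.32, the dehydrogenase Acad9 at -0.71, the isomerase Eci2 at -0.88, the hydroxyacyl-CoA dehydrogenase Hsd17b10 at -0.81, Etfdh, which passes electrons from these dehydrogenases to ubiquinone, at -0.72, and Oxct1, of ketone body use, at -0.72. The others were Prkab1 and Prkag1, subunits of AMP-activated kinase, at -0.76 and -0.72. Of these 8, all but Slc22a5 had a probe numbered between 14299 and 16006, the range that holds Echs1, Hadhb and Acat1, and there the values on constant hypoxia 4 weeks A were -2.79 to -1.69 against neighbour medians of -2.60 to -1.87. The Oxct1 value averaged probes that differed. In constant hypoxia the one in that range read -0.36 and -0.27 at 1 week, -0.94 and -0.83 at 2 weeks, and -2.53 and -0.52 at 4 weeks. The other Oxct1 probe read 0.05 and 0.03, then 0.07 and -1.03, then 0.17 on array B alone. With the running median removed none of the 9 passed, and they ran from -0.16 for Prkab1 to 0.17 for Etfdh. Among the other mitochondrial enzymes, constant hypoxia minus normoxia was 0.29 for Eci1 and 0.32 for Acot2, and -0.67 for Eci2 and -0.46 for Acad9, with adjusted p values of at least 0.647 (limma). Intermittent hypoxia minus normoxia was 0.35 for Eci1, 0.16 for Acot2, -0.26 for Acot9 and -0.41 for Ech1, all with an adjusted p of 0.995.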

How the data were processed

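Per the labels' protocols, kidney RNA of an animal labelled male was labelled with Cy5 and that of one labelled female with Cy3, without dye swap. The values the authors deposited were log2 ratios, 1 for a probe on an array. For background correction, normalization, numerator, spot intensity and genome build the sources used here say nothing. Probes were named by a single symbol of the platform annotation, updated through Entrez IDs to RefSeq. Probes needed values on 15 or more of the 18 arrays and in all 9 groups. Probes of a gene were averaged, and array medians over features were set to 0. In R 4.3.3, limma 3.58.1 fitted the 9 group means (lmFit and eBayes, prior degrees of freedom 5.55), with two-sided p values adjusted by Benjamini-Hochberg over all 5751 features and a threshold of 0.05. The procedure was tested on simulated data. Relations over arrays were tested by two-sided permutation in Python 3.11.15, exactly for groups of 6 and with 100000 resamples otherwise; those other than Hadha with Hadhb were added after seeing the data.

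The labels name different animals for the arrays of a group, and 2 arrays per group limit the precision. Letters A and B were not taken to pair arrays: correlations of deviations between same-lettered arrays ran from -0.36 to 0.44 (median 0.01). Because the sign of some arrays is uncertain, these values cannot exclude a pairing. The members and lists were chosen with earlier results of these data known. All 10 members are described; other pathway genes are named where they passed, or as the 2 with the smallest p in each direction among other mitochondrial enzymes. Alternatives were the values as deposited, removal of running or block medians along probe numbers, probe filters, other probe rules, array weights, fits of only the conditions compared, a replicate block, leaving out each array and, added after seeing the data, turning the sign of 7 arrays by Eif2s3y.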

Additional observations from a re-analysis of the deposited data

Results flagged for a closer look

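Over 30 groups of arrays (10 enzymes in 3 conditions), 3 held a single array far from the others by Dixon's criterion, which chance meets in about 1 in 20 groups. Acads read 0.86 on normoxia 4 weeks B, where the other 5 normoxia arrays lay between -0.09 and 0.13. Echs1 read -2.15 on constant hypoxia 4 weeks A, an array whose SD over features was 0.890. Hadha read 0.80 on intermittent hypoxia 2 weeks B, whose SD over features was 0.678, and 5 other arrays of that condition lay between -0.26 and 0.10.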

How the results depend on the processing

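The counts of members past the threshold and the Hadha and Hadhb correlation were recomputed under the alternatives. Of these values 547 stayed, 17 moved, 1 came past the threshold and 2 reversed. Among medians and single members 351 values stayed, 25 moved, 9 came past the threshold and 2 reversed. On the values as deposited the count went from 0 to 10 for the constant hypoxia mean ratio, 9 for constant hypoxia minus normoxia, 8 for intermittent minus constant hypoxia, 5 for constant hypoxia minus normoxia at 1 week and 10 at 4 weeks, and the Hadha and Hadhb r became 0.72. There the mean ratios of Acadm and Acads in constant hypoxia turned to -0.43 and -0.49. Array weights called 1 member (Echs1) in the constant hypoxia mean ratio. In the intermittent hypoxia mean ratio block medians called 1 (Hadh, -0.43, adjusted p = 0.0489, limma), and leaving out constant hypoxia 4 weeks A with intermittent hypoxia 2 weeks B, chosen after seeing the data, called 1 (Acat1, -0.61, adjusted p = 0.0464). Leaving out 1 array at a time gave 0 to 2 called members for the constant hypoxia mean ratio, for constant hypoxia minus normoxia over all durations and at 4 weeks, for intermittent minus constant hypoxia, and for the age change in constant hypoxia and its difference from normoxia. It gave 0 to 1 for intermittent hypoxia minus normoxia at 2 weeks. The 2 were Echs1 and Hadhb, called without constant hypoxia 4 weeks B; Acads was called in the constant hypoxia mean ratio without normoxia 4 weeks A or B (0.30, adjusted p = 0.0352). The lone array left in a group is assumed to vary like the others. For array weights, block medians and arrays left out, the share of all features called is not given beside these counts. In the main fit that share was 18.3% for the constant hypoxia mean ratio and 5.79% for the intermittent hypoxia mean ratio. The counts of called members are therefore not read as particular to the enzymes. The pair r was -0.13 within constant hypoxia and -0.15 without the 2 farthest arrays. With a replicate block for the letters, which were not taken to pair the arrays, 0 members passed in any contrast. With the sign turned on the 7 arrays with Eif2s3y below 0, also chosen after seeing the data, 0 members passed in any contrast. The cause of these changes was not tested. A value of a single member not past the threshold was counted as moved only where it shifted by over 1 SE. The median member was recomputed for the differences from normoxia over all durations, without the settings that leave out 1 array.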
